A study of Mus musculus with 26 samples.

Results

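The 42 genes described here encode the machinery that copies DNA in S phase. They were listed by name and role, and all 42 were found among the 23762 gene symbols of the RNA-seq count table. Of the 42, 11 license origins, 6 activate the helicase, 8 are subunits of polymerases and primase, 10 form the clamp, its loader, the single-strand binding protein and the joining enzymes, 5 supply nucleotides and 2 assemble chromatin. The series has 18 RNA-seq libraries from mouse B-lineage cells in 9 groups of 2. Flow-sorted small pre-B cells were CXCR4-/- or wild type. Pre-B cells with no stated deletion were cultured with CXCL12 and ERK inhibitor II in the absence of IL-7, with both IL-7 and CXCL12, with CXCL12 in place of IL-7, without either factor, or with IL-7 alone. CXCR4-/- small pre-B cells were cultured without IL-7, with CXCL12 or without it. CXCR4 is the receptor of the chemokine CXCL12, and IL-7 is the cytokine on which mouse pre-B cells proliferate. The sources used here do not give how CXCR4 was deleted, the age and strain of the mice, the doses or the culture times. Nothing in the labels makes the replicates separate animals or cultures. Each p-value therefore only sets a difference between groups against the spread of replicates over all libraries of the fit. The fit held all 18 libraries unless stated, and that spread could be technical.

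Before S phase, the origin recognition complex, CDC6 and CDT1 load the MCM ring onto DNA, and CDC45 and the GINS complex turn that ring into the active helicase. Primase and polymerase alpha start each strand, polymerases epsilon and delta extend it on the PCNA clamp, and flap removal and ligation close the gaps of the lagging strand. Large pre-B cells divide in response to IL-7 and the pre-B cell receptor, and small pre-B cells have left the cycle and rearrange their light chain genes. E2F proteins are known to drive transcription of many replication genes as cells enter S phase.

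The promoters of these genes were read from the RefSeq promoter table of GRCm38.p6, which gives 250 bases before to 50 bases after each annotated start, and 34 of the 42 genes matched. The genes with no entry were Prim2, Pole, Rfc2, Mcm4, Gmnn, Gins1, Gins4 and Gins2. An E2F-type word, here TTTCCCGC, TTTCGCGC, TTTGCCGC or TTTGGCGC on either strand, was present in 13 of 40 windows of these genes (32.5%), against 492 of 13572 windows of all genes tested in the RNA-seq data (3.63%). CCAAT on either strand was present in 57.5% of the replication windows, against 37.2% of the windows of all genes tested. GGGCGG on either strand was present in 67.5% of the replication windows, against 59.4% of those of all genes tested. The genes with an E2F-type word were Mcm3, Mcm5, Mcm6, Mcm7, Cdc6, Cdt1, Orc1, Gins3, Pola1, Pole2, Pold1, Rfc3 and Lig1. A matched word describes the sequence and is not a bound site, and a window without one only lacks these letters.

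Of the 3 kinds of word searched, the E2F-type word was the one whose share differed most from that in all genes tested. The stretch from 160 bases before to 20 bases after the start is therefore printed below. It is given for the 8 genes whose E2F-type word lies wholly inside. Each runs 5′ to 3′ in the direction of the gene, with the E2F-type words in capitals, and capitals of more than 8 letters are words that overlap. Mcm5 lies at chr8:75109349-75109528 on the plus strand and Mcm6 at chr1:128359686-128359865 on the minus strand. Cdc6 lies at chr11:98907991-98908170 and Orc1 at chr4:108579294-108579473, both on the plus strand. Gins3 lies at chr8:95633399-95633578 on the plus strand. Pola1 lies at chrX:93632136-93632315, Pole2 at chr12:69228171-69228350 and Rfc3 at chr5:151651189-151651368, all on the minus strand.
Mcm5: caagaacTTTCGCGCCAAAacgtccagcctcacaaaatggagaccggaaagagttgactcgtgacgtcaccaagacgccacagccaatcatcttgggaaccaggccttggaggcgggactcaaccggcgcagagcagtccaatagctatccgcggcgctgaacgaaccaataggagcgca
Mcm6: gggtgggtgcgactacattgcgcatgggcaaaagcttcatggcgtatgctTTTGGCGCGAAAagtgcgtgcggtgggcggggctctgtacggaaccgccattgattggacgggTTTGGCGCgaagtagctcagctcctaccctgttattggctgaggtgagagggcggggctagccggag
Cdc6: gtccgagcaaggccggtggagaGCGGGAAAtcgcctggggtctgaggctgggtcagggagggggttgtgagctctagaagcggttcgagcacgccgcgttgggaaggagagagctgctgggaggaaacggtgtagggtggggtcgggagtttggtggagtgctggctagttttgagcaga
Orc1: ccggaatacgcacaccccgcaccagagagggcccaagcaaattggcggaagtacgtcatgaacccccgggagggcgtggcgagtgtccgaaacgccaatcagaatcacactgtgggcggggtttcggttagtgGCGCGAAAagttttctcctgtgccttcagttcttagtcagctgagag
Gins3: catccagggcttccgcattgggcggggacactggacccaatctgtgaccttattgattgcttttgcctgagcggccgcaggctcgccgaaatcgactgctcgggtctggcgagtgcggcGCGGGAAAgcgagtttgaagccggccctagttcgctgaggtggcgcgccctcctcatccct
Pola1: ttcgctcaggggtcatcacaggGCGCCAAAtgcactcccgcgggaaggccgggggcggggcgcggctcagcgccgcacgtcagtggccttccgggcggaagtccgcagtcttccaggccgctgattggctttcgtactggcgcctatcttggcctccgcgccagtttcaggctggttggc
Pole2: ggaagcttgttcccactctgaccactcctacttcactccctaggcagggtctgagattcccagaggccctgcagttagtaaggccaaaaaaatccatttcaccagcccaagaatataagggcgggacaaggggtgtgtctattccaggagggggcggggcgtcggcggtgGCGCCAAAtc
Rfc3: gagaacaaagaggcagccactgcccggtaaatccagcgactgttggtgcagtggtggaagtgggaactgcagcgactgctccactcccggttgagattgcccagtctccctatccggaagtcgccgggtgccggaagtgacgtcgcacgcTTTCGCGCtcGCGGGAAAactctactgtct

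Mcm6 held 3 E2F-type words in this stretch, Mcm5 and Rfc3 held 2 each, and the other 5 genes held 1 each. The words of Cdc6 and Pola1 began 138 bases before the start, that of Gins3 began 41 bases before it, and that of Pole2 began 10 bases after it. With CXCL12 in place of IL-7, the change described below had a median of -1.62 on the log2 scale over the 13 genes with a word, -1.52 over the 21 without one and -1.55 over the 8 with no entry. The ranges of the 3 sets overlapped over most of their length, from -1.91 to -0.77, from -1.91 to -0.71 and from -1.76 to -0.49.

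Library totals ran from 17257914 to 50235192 counts, and levels are given as CPM, each count as a share of its library total on the usual CPM scale, with totals scaled by the trimmed mean of M values. All 42 genes passed the filter on low counts in the fit of 14862 genes. Sorted CXCR4-/- libraries had 14813 and 14342 genes with any count, at totals of 32461696 and 27343664. Sorted wild-type libraries had 15619 and 15516 such genes, at totals of 19297551 and 17678225. The CXCR4-/- cultures had 13950 to 14166 such genes, against 15582 to 16392 in the other cultures. Cxcr4 had 37.2 and 409 CPM in sorted CXCR4-/- cells, against 943 and 922 CPM in sorted wild-type cells, so the second CXCR4-/- library held more of the transcript than the first. In cultures without IL-7 it had 137 and 132.5 CPM in CXCR4-/- cells with CXCL12, against 236.5 and 225.5 CPM in CXCR4-sufficient cells with CXCL12, and 113.8 and 130.0 CPM in CXCR4-/- cells with no factor, against 169.2 and 171.2 CPM in CXCR4-sufficient cells with no factor. It had 113.4 and 112.4 CPM in CXCR4-sufficient cells with IL-7, which is no higher than in the CXCR4-/- cultures, and the deleted part of the gene is unknown here. In these 42 genes, 1 library stood apart from its replicate. Replicate 1 of CXCR4-/- cells with no factor had a scaling factor of 0.839, against 0.931 to 1.05 in the other libraries, and 10 of the 42 genes differed by more than 1.5-fold between it and replicate 2, against 0 genes in each of the other 8 groups. Gapdh and Rps29 together had 2034 to 2601 CPM in the 4 libraries with both CXCL12 and either IL-7 or the ERK inhibitor and 1.21 to 13.1 CPM in the other 14, so comparisons that cross these sets of libraries are given as such. The replicates without either factor and those with CXCL12 in place of IL-7 were nearly as alike as sampling noise allows, with a chi-square per degree of freedom of 1.48 and 1.34 over genes, against 5.94 to 264.5 in the other groups. The labels or column names of replicate 2 in these 2 groups name both pre-B and small pre-B cells, and both libraries were kept in the group of their treatment. The highest chi-square per degree of freedom was 264.5, in CXCR4-/- cells with no factor. The next was 44.7, in sorted CXCR4-/- cells, and IL-7 with CXCL12 followed at 12.2. Transcripts of the B-lineage genes Cd79a, Cd79b, Pax5, Ebf1 and Blnk were present in all 18 libraries.

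Across the 9 groups the replication genes were lowest in cultures with CXCL12 in place of IL-7 for 37 of 42 genes, and lowest in sorted wild-type small pre-B cells for the other 5, which were Cdt1, Pold1, Rpa1, Rrm2 and Tk1. Both libraries with CXCL12 in place of IL-7 lay below the other 12 culture libraries for all 42 genes. They also lay below both sorted wild-type libraries for 36 genes and above both for 4. The highest group was CXCR4-/- cells with no factor for 26 genes, CXCR4-/- cells with CXCL12 for 14, and IL-7 with CXCL12 for Mcm7 and Pcna. Without replicate 1 of CXCR4-/- cells with no factor, these counts were 22, 17 and 3. The ratio of the highest to the lowest group mean was 2.12 to 17.4 over the 42 genes, with a median of 4.82, and 2.12 to 10.1 with a median of 4.55 without that library.

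**Figure D1:**
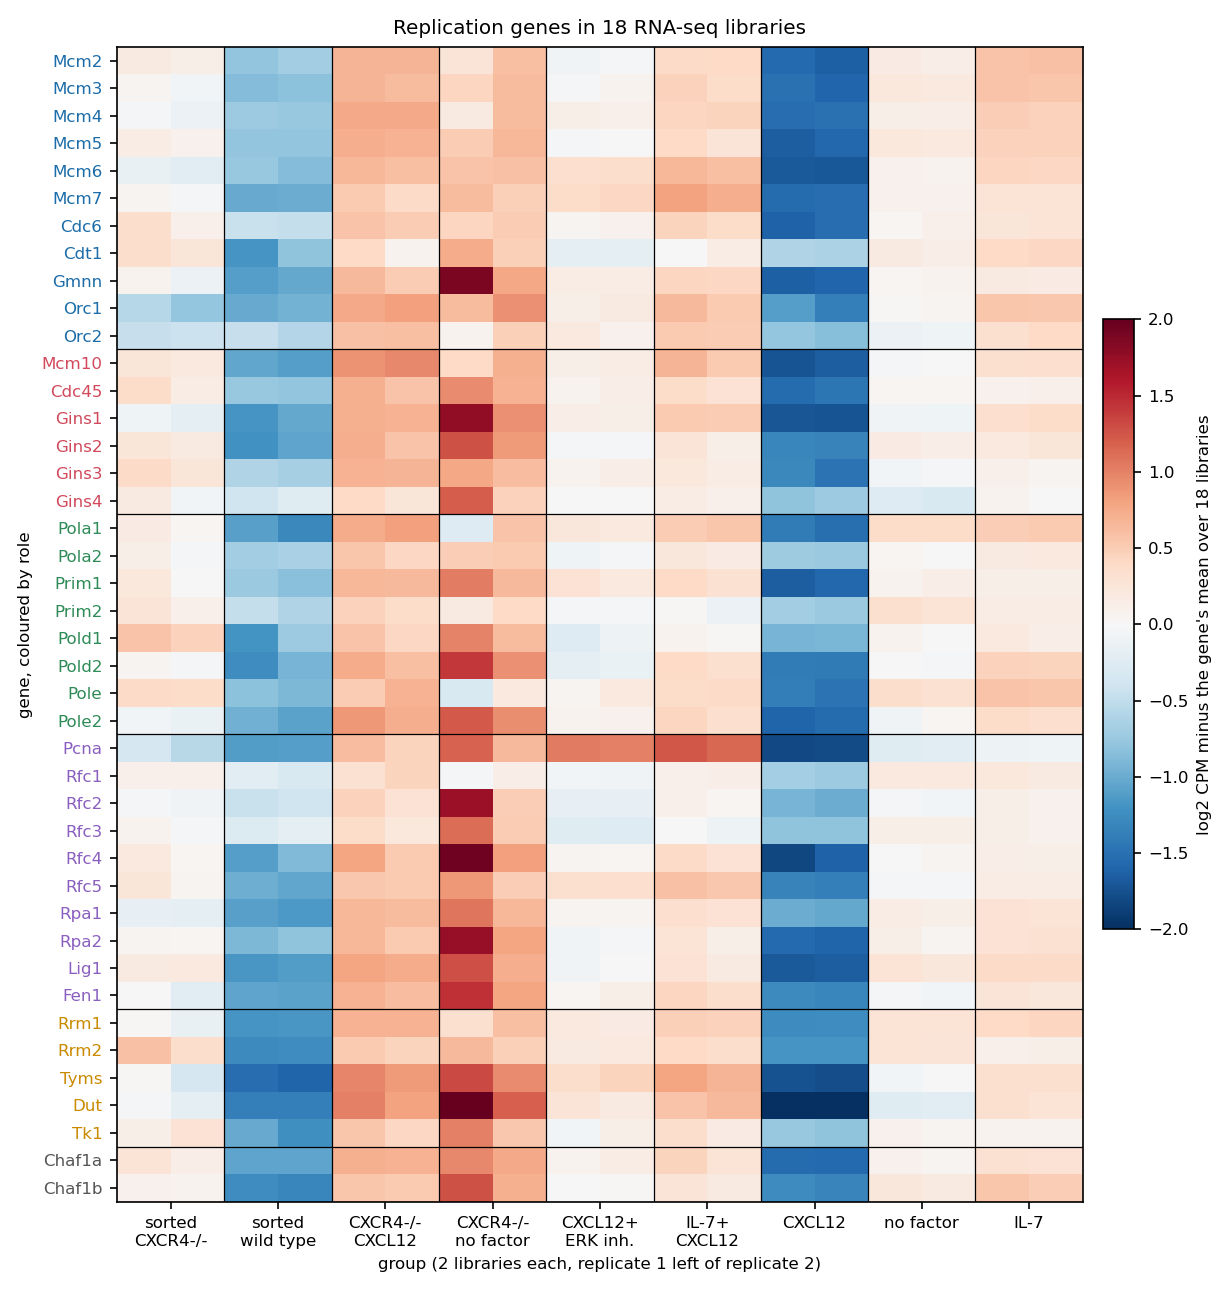
Level of each of the 42 replication genes (down the page, coloured by role) in each of the 18 libraries (across, 2 per group), as log2 CPM minus the gene's mean over all libraries. The colour scale ends at 2 in either direction; the cultures with CXCL12 in place of IL-7 and the sorted wild-type cells form the blue columns, and replicate 1 of CXCR4-/- cells with no factor differs from replicate 2 in 10 genes by more than 1.5-fold.

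Relative to sorted wild-type cells, the median gene was 0.97 higher on the log2 scale in sorted CXCR4-/- cells, 1.52 higher in CXCR4-/- cells with CXCL12 and 1.64 higher in CXCR4-/- cells with no factor. It was 1.06 higher with CXCL12 and the ERK inhibitor, 1.35 higher with IL-7 and CXCL12, 1.02 higher without either factor and 1.26 higher with IL-7. Only the cultures with CXCL12 in place of IL-7 had a median below the sorted wild-type cells, at -0.53. These differences in level set cultured cells against sorted cells and were not tested. Summed over the 42 genes, the level was 7236 and 6712 CPM in sorted CXCR4-/- cells, against 3502 and 3557 CPM in sorted wild-type cells. The sum was 2613 and 2597 CPM with CXCL12 in place of IL-7, 7239 and 7185 CPM without either factor and 8352 and 8315 CPM with IL-7. In the other cultures the sum was 10434 and 10021 CPM in CXCR4-/- cells with CXCL12, 12203 and 10243 CPM in CXCR4-/- cells with no factor, 7312 and 7423 CPM with CXCL12 and the ERK inhibitor and 9160.4 and 8819 CPM with IL-7 and CXCL12. The pair with CXCL12 in place of IL-7 was thus the lowest, with the sorted wild-type pair next above it.

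**Figure D2:**
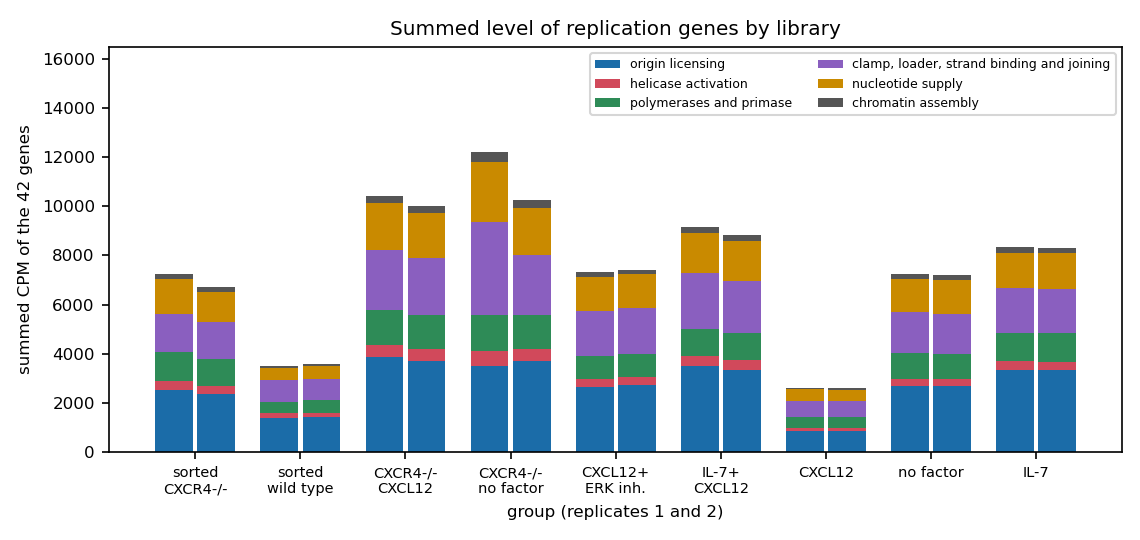
Summed CPM of the 42 replication genes in each library, stacked by role, with the groups across and replicate 1 left of replicate 2. Both libraries with CXCL12 in place of IL-7 stand at 2597 and 2613 CPM, below every other pair, and the CXCR4-/- cultures stand between 10021 and 12203 CPM.

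CXCL12 added to cells without IL-7 was accompanied by a fall of nearly the whole list. Of the 42 genes, 41 were lower with CXCL12 than without either factor and 0 were higher at an adjusted p under 0.05 (edgeR quasi-likelihood test, Benjamini-Hochberg adjustment over all 14862 genes), where 13.2% of all genes tested were lower and 17.3% were higher (30.6% in either direction). The median change of the 42 was -1.55 on the log2 scale, against 0.09 for all genes tested, and DESeq2 gave the same counts of 41 and 0. At an unadjusted p under 0.05, 42 were lower and 0 higher. The exception was Gins4, at -0.49 ± 0.18 (SE; edgeR adjusted p = 0.06). In RNA from bulk cultures, fewer cycling cells and less of each transcript per cell cannot be told apart. With each of the 2 closely alike pairs of libraries summed to 1, 38 genes were called lower.

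All 11 licensing genes were lower. Mcm5, a subunit of the MCM ring, had 121 and 129 CPM with CXCL12 and 440.4 and 435 CPM without it. Mcm6, another subunit, had 133 and 132 CPM with CXCL12 and 449.5 and 448 CPM without it, and Mcm3 had 136 and 128 CPM with CXCL12 and 447 and 441 CPM without it. The groups did not overlap for any of these subunits, and each gene stood at between 0.286 and 0.298 times its level without CXCL12. The change was -1.81 ± 0.08 on the log2 scale for Mcm5 (edgeR adjusted p = 5.31e-08), -1.76 ± 0.07 for Mcm6 (edgeR adjusted p = 3.88e-08) and -1.75 ± 0.09 for Mcm3 (edgeR adjusted p = 8.64e-08). The 6 ring subunits moved almost as one, from -1.81 for Mcm5 to -1.62 for Mcm7, a span of 0.19. Cdc6, a ring loader, changed by -1.64 and Gmnn, whose product geminin inhibits CDT1, by -1.67. Smaller falls were those of Cdt1 (-0.77), of Orc1 (-1.26), and of Orc2 (-0.71), the last of which encodes an origin recognition subunit.

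Of the 6 genes that activate the helicase, 5 were lower. Mcm10, which acts as the helicase is switched on, had 23.6 and 24.9 CPM with CXCL12 and 76.9 and 77.4 CPM without it. Cdc45, a helicase subunit, had 29.8 and 31.6 CPM with CXCL12 and 88.3 and 88.5 CPM without it. Gins3, of the GINS complex, had 11.4 and 10.0 CPM with CXCL12 and 27.0 and 27.6 CPM without it. In each of the 3 genes both libraries with CXCL12 lay far below both without it, and the changes were -1.67 ± 0.10, -1.53 ± 0.10 and -1.34 ± 0.10 on the log2 scale in that order of genes (edgeR adjusted p = 2.89e-07, 6.07e-07 and 1.16e-06). The 4 GINS subunits spread more widely than the ring, from -1.64 for Gins1 to -0.49 for Gins4. Gins4 had 25.2 and 26.8 CPM with CXCL12 and 37.1 and 35.8 CPM without it, so its libraries too did not overlap.

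All 8 polymerase and primase genes were lower. Prim1, the catalytic primase subunit, had 28.2 and 29.8 CPM with CXCL12 and 93.0 and 97.1 CPM without it. Pole, the catalytic subunit of the leading-strand polymerase epsilon, had 54.4 and 51.0 CPM with CXCL12 and 181 and 175 CPM without it, and Pole2, a partner subunit, had 10.1 and 10.6 CPM with CXCL12 and 29.4 and 31.7 CPM without it. The changes were -1.72 ± 0.12 for Prim1, -1.76 ± 0.14 for Pole and -1.56 ± 0.11 for Pole2 (edgeR adjusted p = 7.06e-07, 1.86e-06 and 9.55e-07 in that order). Within the polymerase alpha and primase complex the catalytic subunits Pola1 (-1.82) and Prim1 were at one end and their partners Pola2 (-0.75) and Prim2 (-1.02) at the other. Polymerase delta, which extends the lagging strand, had changes of -0.96 for its catalytic subunit Pold1 and -1.40 for Pold2.

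All 10 genes of the clamp, loader, strand binding and joining group were lower. Lig1, the ligase that joins lagging-strand fragments, had 81.7 and 84.2 CPM with CXCL12 and 317 and 308 CPM without it, a change of -1.91 ± 0.14 on the log2 scale (edgeR adjusted p = 1.16e-06) and the largest fall in the list. Rfc5, a clamp loader subunit, had 26.5 and 25.9 CPM with CXCL12 and 64.8 and 65.8 CPM without it (edgeR adjusted p = 3.68e-06), and Rfc1, the large loader subunit, had 108 and 105 CPM with CXCL12 and 200.03 and 199.73 CPM without it (edgeR adjusted p = 4.74e-06). The loader subunits thus changed by unequal amounts, from -1.75 for Rfc4 and -1.32 for Rfc5 to -0.92 for Rfc3, -0.91 for Rfc1 and -0.91 for Rfc2. Pcna, the sliding clamp, changed by -1.56, Rpa1 and Rpa2, which coat single-stranded DNA, by -1.14 and -1.66, and Fen1, the flap nuclease, by -1.26. Pcna has the named pseudogenes Pcna-ps1 and Pcna-ps2 and Tyms has Tyms-ps, so reads may have been split or lost for both and their values are uncertain.

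All 5 nucleotide supply genes and both chromatin assembly genes were lower. Rrm1, the large subunit of ribonucleotide reductase, had 218 and 220.3 CPM with CXCL12 and 628 and 629 CPM without it. Rrm2, its small subunit, had 175 and 174 CPM with CXCL12 and 477 and 475 CPM without it. The changes were -1.52 ± 0.09 for Rrm1 and -1.45 ± 0.09 for Rrm2 (edgeR adjusted p = 3.39e-07 and 3.61e-07). Tyms, which makes dTMP, changed by -1.74 ± 0.14 (edgeR adjusted p = 2.09e-06) and had 16.5 and 16.1 CPM with CXCL12, against 53.3 and 55.7 CPM without it. Dut, which removes dUTP, changed by -1.91, and Tk1, the thymidine salvage kinase, by -0.85. Chaf1a, the large subunit of chromatin assembly factor 1, had 42.4 and 42.1 CPM with CXCL12 and 131 and 129 CPM without it, a change of -1.62 ± 0.09 (edgeR adjusted p = 1.54e-07). Its partner Chaf1b had 24.4 and 23.4 CPM with CXCL12 and 68.6 and 66.6 CPM without it (edgeR adjusted p = 6.90e-06).

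**Figure D3:**
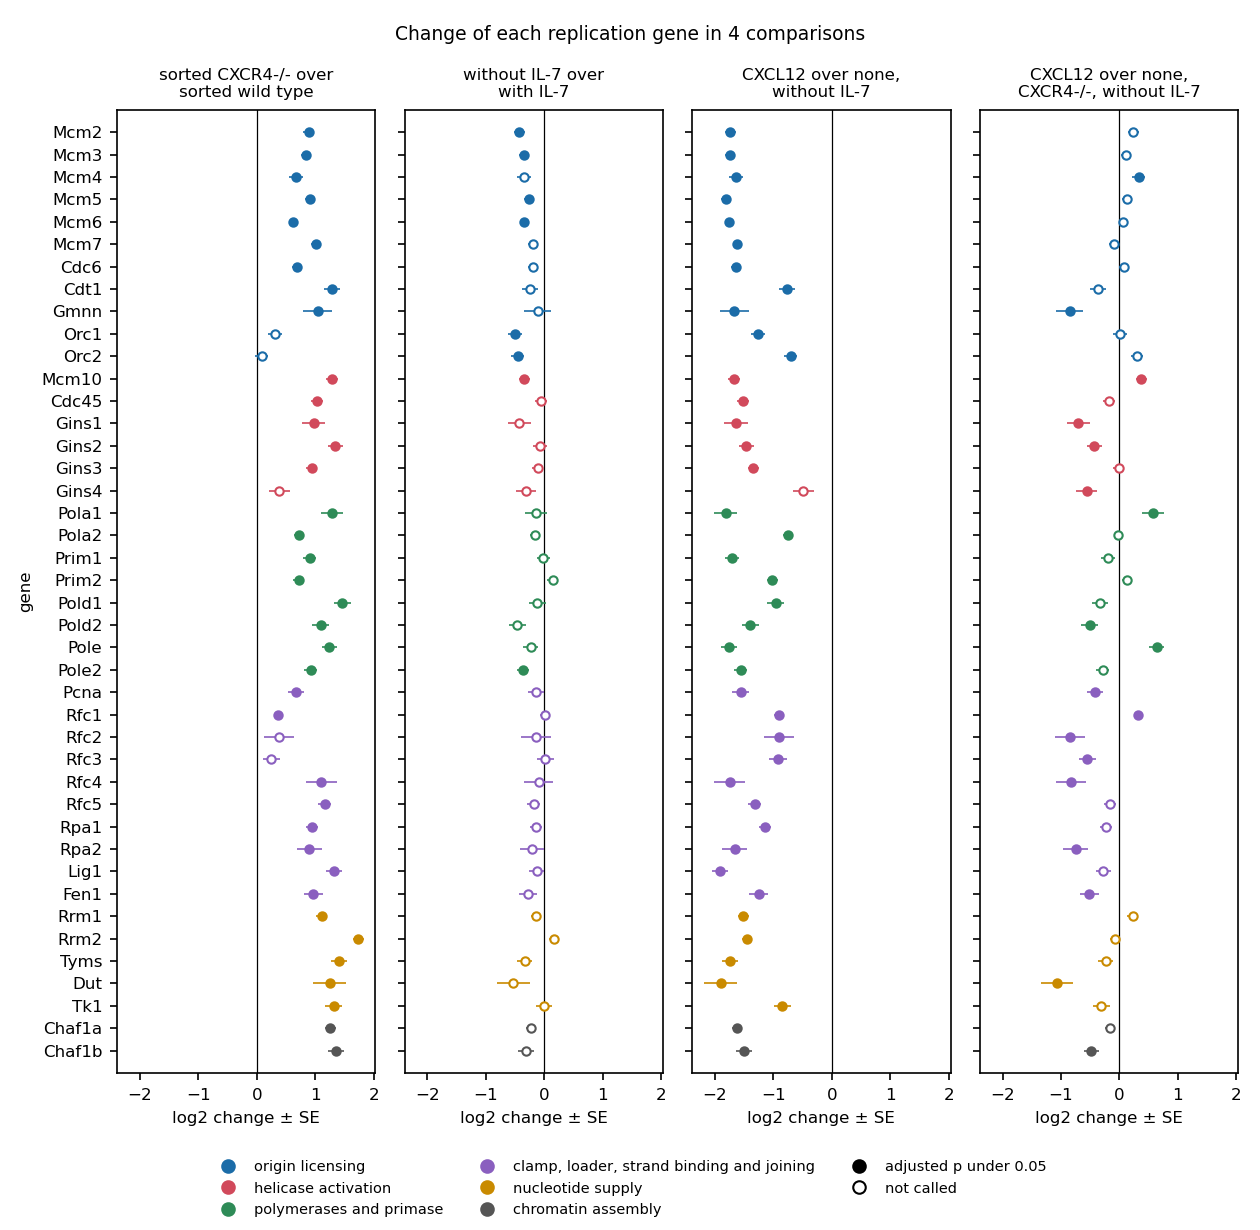
Log2 change ± SE of each replication gene (down the page, coloured by role) in 4 comparisons (panels), with filled points at an adjusted p under 0.05. All but Gins4 lie left of 0 and are filled with CXCL12 over none without IL-7, 37 lie right of 0 and are filled in sorted CXCR4-/- cells over wild type, and the points lie between -1.06 and 0.64 in the other panels.

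Markers of other cells moved with this comparison. Of 7 stromal genes tested, 4 were higher with CXCL12, and the summed level of the 8 listed was 1799.9 and 1786 CPM with CXCL12, 803 and 794 CPM without either factor and 321 and 601 CPM with IL-7, with Lum at 0 in all 6 of these libraries. Of 10 myeloid genes, 1 was higher, and their sum was 712 and 718 CPM with CXCL12, 285 and 285 CPM without either factor and 158 and 207 CPM with IL-7. All 4 small pre-B genes (Il2ra, Rag1, Rag2 and Cd2) were higher, at a sum of 630.4 and 618 CPM with CXCL12 and 298 and 303 CPM without either factor. Of 6 pro-B and large pre-B genes 1 was higher and 2 were lower, at a sum of 1200.3 and 1179.5 CPM with CXCL12 and 2057 and 2035 CPM without either factor. Of 6 mature B genes 3 were higher and 0 lower, at 792 and 769 CPM with CXCL12 and 491 and 478 CPM without either factor. Of 5 T cell genes tested 0 were higher and 2 lower, and the 6 listed summed to 35.7 and 34.1 CPM with CXCL12 and 111 and 109.7 CPM without either factor. The part of these cells and stages in the fall of the replication genes was not tested. The 8 listed stromal genes made up 0.18% of the scaled counts with CXCL12 and 0.08% without either factor. This is the share of these genes alone and does not give the share of stromal cells or of all stromal RNA.

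Set against cultures with IL-7 alone, the cultures with CXCL12 in place of IL-7 were lower in all 42 genes, where 21.5% of all genes tested were lower and 29.8% higher (51.3% in either direction). The median change was -1.78 on the log2 scale, against 0.12 for all genes tested, and the range was -2.43 for Dut to -0.80 for Gins4. This comparison shares its CXCL12 libraries with the previous one, so the 2 counts are not separate evidence. Mcm6 had 133 and 132 CPM with CXCL12 and 572 and 568 CPM with IL-7 (edgeR adjusted p = 2.40e-09). Mcm10 had 23.6 and 24.9 CPM with CXCL12 and 97.1 and 98.4 CPM with IL-7 (edgeR adjusted p = 2.72e-08), and Pole2 had 10.1 and 10.6 CPM with CXCL12 and 39.9 and 38.8 CPM with IL-7 (edgeR adjusted p = 8.34e-08). For each of these genes the IL-7 libraries were the highest of the 3 media, and the changes were -2.11 ± 0.07, -2.01 ± 0.10 and -1.93 ± 0.11 on the log2 scale. Lig1 changed by -2.05 ± 0.14, Rrm1 by -1.66 ± 0.09 and Chaf1a by -1.85 ± 0.09 (edgeR adjusted p = 3.15e-07, 6.91e-08 and 2.10e-08).

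Loss of IL-7 alone was accompanied by small changes in these genes, and the number called depended on the fit. Of the 42, 8 were lower and 0 higher without IL-7 than with it, where 6.23% of all genes tested were lower and 5.6% higher (11.8% in either direction). At an unadjusted p under 0.05, 17 were lower and 0 higher, and DESeq2 called 10 lower and 0 higher. The median of the 42 was -0.19 on the log2 scale, against 0.05 for all genes tested. Of the 8, 6 were licensing genes (Mcm2, Mcm3, Mcm5, Mcm6, Orc1 and Orc2), and the others were Mcm10 and Pole2. Mcm6 had 449.5 and 448 CPM without IL-7, against 572 and 568 CPM with it, a change of -0.35 ± 0.07 (edgeR adjusted p = 0.00753). Mcm2, a ring subunit, had 341 and 337 CPM without IL-7, against 457 and 458 CPM with it (-0.43 ± 0.10; edgeR adjusted p = 0.0131). Orc1, the large origin recognition subunit, had 22.1 and 22.5 CPM without IL-7, against 31.9 and 31.4 CPM with it (-0.51 ± 0.12; edgeR adjusted p = 0.0162). Both libraries without IL-7 lay below both with it in all 3 genes. Mcm10 changed by -0.34 ± 0.10 (edgeR adjusted p = 0.0412) and Pole2 by -0.37 ± 0.11 (edgeR adjusted p = 0.0448). Rrm2 was at 477 and 475 CPM without IL-7, against 423 and 427 CPM with it, and did not pass the test (0.16 ± 0.09; edgeR adjusted p = 0.287). Without any 1 of the 4 libraries, 0 of the 42 genes were called, with 10 below an unadjusted p of 0.05 each time. Fitting these 4 libraries alone called 36 lower and 2 higher, and none was called with the closely alike pair summed to 1 library.

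CXCL12 added to CXCR4-/- cells without IL-7 gave no shared fall. Of the 42 genes, 5 were higher and 13 lower with CXCL12 than without it, where 12.8% of all genes tested were higher and 21% lower (33.8% in either direction), and the median of the 42 was -0.19 on the log2 scale, against 0.00 for all genes. The 5 higher were Mcm4, Mcm10, Pola1, Pole and Rfc1. Pole had 201 and 230.1 CPM with CXCL12 and 115 and 163 CPM without it (0.64 ± 0.13; edgeR adjusted p = 0.0218). Mcm10 had 146 and 151 CPM with CXCL12 and 102 and 127 CPM without it (0.37 ± 0.10; edgeR adjusted p = 0.0218), and Pola1 had 229.8 and 243 CPM with CXCL12 and 115 and 204 CPM without it (0.57 ± 0.19; edgeR adjusted p = 0.0365). In all 3 genes the libraries did not overlap, and replicate 1 without CXCL12 was the lowest of the 4. Rfc1 changed by 0.32 ± 0.08 (edgeR adjusted p = 0.0218) and Mcm4 by 0.33 ± 0.11 (edgeR adjusted p = 0.042).

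Among the 13 lower genes were Dut, Gmnn, Gins1, Rfc3 and Rpa2. Dut had 347 and 301 CPM with CXCL12 and 962 and 394 CPM without it (-1.06 ± 0.28; edgeR adjusted p = 0.0218). Gmnn had 110.0 and 99.5 CPM with CXCL12 and 258 and 120.3 CPM without it (-0.85 ± 0.24; edgeR adjusted p = 0.0229), and Gins1 had 50.6 and 50.3 CPM with CXCL12 and 106 and 58.0 CPM without it (-0.70 ± 0.19; edgeR adjusted p = 0.0225). In each, replicate 1 without CXCL12 was more than 1.5-fold above replicate 2, and replicate 2 lay nearer to the cultures with CXCL12. Of the 10 genes that differed by more than 1.5-fold between those replicates, 9 were higher in replicate 1 (Dut, Rfc2, Rfc4, Gmnn, Rpa2, Gins1, Gins4, Fen1 and Rfc3), by 1.52-fold to 2.45-fold, and Pola1 was lower. Without replicate 1, Pole and Rfc1 remained higher and 0 genes were lower. Without replicate 2 the counts were 11 higher and 25 lower, and without either library with CXCL12 none was called, with 22 and 15 genes below an unadjusted p of 0.05. None was called either in a fit of these 4 libraries alone or without the 4 libraries high in Gapdh. Pro-B and large pre-B transcripts summed to 2175 and 1995 CPM with CXCL12 and 4879 and 2445 CPM without it, of which the higher value is replicate 1, and 2 of the 6 such genes were lower with CXCL12. The part of that library's other differences in these calls was not tested.

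The effect of CXCL12 differed between CXCR4-/- and CXCR4-sufficient cells in 34 of the 42 genes, all with a positive difference, where 12.1% of all genes tested had a positive and 13.1% a negative difference (25.2% in either direction). The difference is the log2 change with CXCL12 in CXCR4-/- cells minus that in cells with CXCR4, and its median was 1.19 over the 42 genes, against -0.14 for all genes tested. Mcm5 had 631 and 615 CPM with CXCL12 and 540.2 and 605 CPM without it in CXCR4-/- cells, against 121 and 129 CPM with CXCL12 and 440.4 and 435 CPM without it in cells with CXCR4, a difference of 1.93 ± 0.11 (edgeR adjusted p = 1.24e-06). Cdc45 had 142 and 128 CPM with CXCL12 and 167 and 140.1 CPM without it in CXCR4-/- cells, a difference of 1.34 ± 0.14 (edgeR adjusted p = 4.38e-05). Rrm1 had 842 and 846 CPM with CXCL12 and 651 and 791 CPM without it in CXCR4-/- cells, a difference of 1.75 ± 0.13 (edgeR adjusted p = 3.77e-06). All 4 CXCR4-/- libraries lay above all 4 libraries of CXCR4-sufficient cells for Mcm5, Cdc45 and Rrm1. The largest differences were those of Pole, at 2.40 ± 0.19, and Pola1, at 2.39 ± 0.27 (edgeR adjusted p = 5.24e-06 and 6.83e-05).

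The 8 genes that did not pass were Cdt1, Gmnn, Gins4, Rfc2, Rfc3, Rfc4, Dut and Tk1, with differences of -0.08 for Gins4 to 0.92 for Rfc4. Of these, Gmnn, Gins4, Rfc2, Rfc3, Rfc4 and Dut were among the genes with replicates more than 1.5-fold apart in CXCR4-/- cells with no factor. Without replicate 1 of that group all 42 had a positive difference that passed, with a median of 1.56, and without replicate 2 there were 37 positive and 2 negative. Any 1 other library left out gave 30. Myeloid transcripts summed to 11.5 and 12.6 CPM with CXCL12 and 13.9 and 17.6 CPM without it in the CXCR4-/- cultures, and stromal transcripts to 0.536 to 1.96 CPM over these 4 libraries, all below the sums given above for CXCR4-sufficient cells without IL-7. With CXCL12, pro-B and large pre-B transcripts summed to 2175 and 1995 CPM in CXCR4-/- cells and 1200.3 and 1179.5 CPM in CXCR4-sufficient cells, and small pre-B transcripts to 238 and 279.8 CPM in CXCR4-/- cells and 630.4 and 618 CPM in CXCR4-sufficient cells. Mature B transcripts summed to 218 and 225 CPM in CXCR4-/- cells and 792 and 769 CPM in CXCR4-sufficient cells with CXCL12, and T cell transcripts to 175 and 169 CPM in CXCR4-/- cells and 35.7 and 34.1 CPM in CXCR4-sufficient cells. With no factor, pro-B and large pre-B transcripts summed to 4879 and 2445 CPM in CXCR4-/- cells and 2057 and 2035 CPM in CXCR4-sufficient cells, and mature B transcripts to 241 and 226 CPM in CXCR4-/- cells and 491 and 478 CPM in CXCR4-sufficient cells. The CXCR4-/- cultures are also labelled small pre-B and the others pre-B. The cultures thus differed in these transcripts, in labels and in the number of genes counted, as well as in CXCR4. The part of these in the result was not tested.

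**Figure D4:**
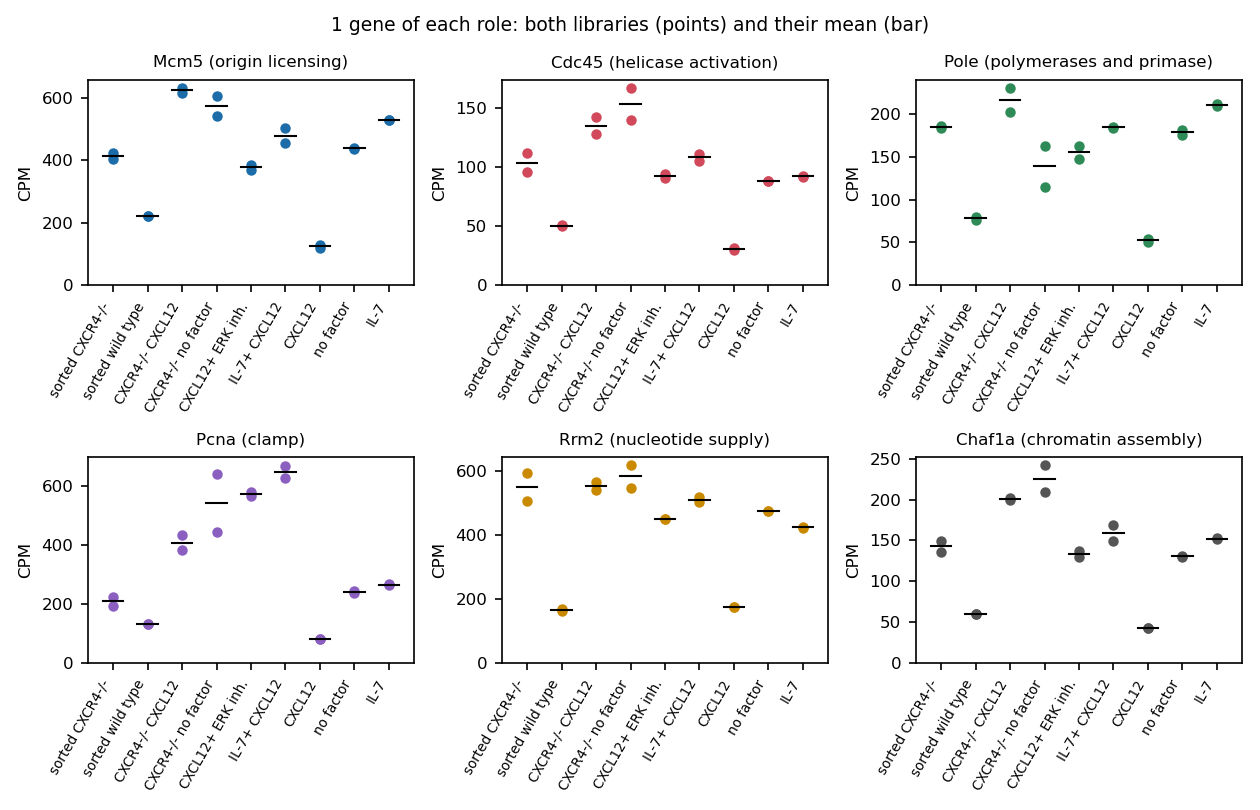
CPM of 1 gene of each role (Mcm5, Cdc45, Pole, Pcna, Rrm2 and Chaf1a) in each group, with both libraries as points and their mean as a bar. For Mcm5, cultures with CXCL12 in place of IL-7 stand at 121 and 129 CPM and CXCR4-/- cells with CXCL12 at 631 and 615 CPM; Pcna is highest in the 4 libraries with CXCL12 and IL-7 or the ERK inhibitor and in replicate 1 of CXCR4-/- cells with no factor.

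In sorted small pre-B cells, loss of CXCR4 was accompanied by higher levels of most of the list. Of the 42 genes, 37 were higher and 0 lower in CXCR4-/- than in wild-type cells, where 16.6% of all genes tested were higher and 17.6% lower (34.2% in either direction). DESeq2 also called 37 higher and 0 lower, and at an unadjusted p under 0.05 there were 38 higher and 0 lower. The median change was 0.97 on the log2 scale, against -0.01 for all genes tested, and the 5 that did not pass were Orc1 (0.31), Orc2 (0.08), Gins4 (0.39), Rfc2 (0.38) and Rfc3 (0.25). The 5 nucleotide supply genes had the highest median of the roles with more than 2 genes, at 1.32. Rrm2 had 595 and 506 CPM in CXCR4-/- cells and 163 and 167 CPM in wild-type cells, a change of 1.74 ± 0.09 and a fold of 3.33 (edgeR adjusted p = 5.93e-08). Rrm1 had 529.7 and 469 CPM in CXCR4-/- cells and 230.4 and 231 CPM in wild-type cells (1.11 ± 0.09; edgeR adjusted p = 2.56e-06), and Tyms had 56.0 and 43.6 CPM in CXCR4-/- cells and 19.2 and 18.2 CPM in wild-type cells (1.41 ± 0.14; edgeR adjusted p = 8.75e-06). The groups did not overlap in any of the 3.

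Among the licensing genes 9 of 11 were higher. Mcm7, a ring subunit, had 329 and 309 CPM in CXCR4-/- cells and 158 and 159.6 CPM in wild-type cells (1.01 ± 0.08; edgeR adjusted p = 1.59e-06), and the ring subunits ran from 0.62 for Mcm6 to 1.01 for Mcm7. Mcm5 had 423 and 405 CPM in CXCR4-/- cells and 222 and 221 CPM in wild-type cells (0.90 ± 0.08; edgeR adjusted p = 4.60e-06), and Mcm3 changed by 0.85 ± 0.09 (edgeR adjusted p = 1.18e-05). Orc1 and Orc2 were the licensing genes that did not pass, and Orc2 had 58.3 and 59.7 CPM in CXCR4-/- cells and 58.2 and 53.2 CPM in wild-type cells, so that the closest libraries of the 2 groups were almost level. Of the helicase activation genes 5 of 6 were higher. Mcm10 had 92.0 and 88.6 CPM in CXCR4-/- cells and 37.8 and 36.1 CPM in wild-type cells (1.29 ± 0.10; edgeR adjusted p = 1.41e-06). Gins2 changed by 1.34 ± 0.13 (edgeR adjusted p = 6.62e-06) and Cdc45 by 1.04 ± 0.10 (edgeR adjusted p = 9.75e-06).

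All 8 polymerase and primase genes were higher in sorted CXCR4-/- cells. Pold1 had 453 and 424 CPM in CXCR4-/- cells and 133 and 185 CPM in wild-type cells (1.46 ± 0.15; edgeR adjusted p = 1.26e-05), and its wild-type libraries were 1.39-fold apart, the widest gap of the list in that group. Pole had 186 and 183 CPM in CXCR4-/- cells and 80.2 and 76.0 CPM in wild-type cells (1.24 ± 0.13; edgeR adjusted p = 2.20e-05), and Pola2 changed by 0.72 ± 0.08 (edgeR adjusted p = 1.70e-05). The groups did not overlap in either Pold1 or Pole. In the clamp and joining group 8 of 10 were higher, among them Lig1 with 297 and 301 CPM in CXCR4-/- cells and 118 and 122 CPM in wild-type cells (1.32 ± 0.14; edgeR adjusted p = 1.59e-05). Rfc5 changed by 1.16 ± 0.11 (edgeR adjusted p = 7.82e-06) and Rpa1 by 0.94 ± 0.11 (edgeR adjusted p = 3.22e-05). Chaf1a changed by 1.26 ± 0.09 (edgeR adjusted p = 6.92e-07) and Chaf1b by 1.36 ± 0.14 (edgeR adjusted p = 1.22e-05).

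Stage markers of the B lineage moved with the sorted comparison. Of 6 pro-B and large pre-B genes, 4 were higher and 1 lower, at a sum of 1295 and 1756 CPM in CXCR4-/- cells and 907 and 863 CPM in wild-type cells. Of 4 small pre-B genes 3 were lower, at a sum of 2009 and 2222 CPM in CXCR4-/- cells and 4339 and 3962 CPM in wild-type cells, and all 6 mature B genes were lower, at 451 and 518 CPM in CXCR4-/- cells and 1263 and 1187 CPM in wild-type cells. Of 10 myeloid genes 2 were higher and 0 lower, and they summed to 6937 and 1206 CPM in CXCR4-/- cells and 5692 and 5634 CPM in wild-type cells. The CXCR4-/- libraries also had fewer genes counted, and they differed from each other in Cxcr4 and in myeloid transcripts. The part of these differences in the higher replication genes was not tested. No source used here gives the gate that defined small pre-B cells.

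The ERK inhibitor was measured with CXCL12 and without IL-7, and within its own set of libraries it can be set against IL-7 with CXCL12, from which it differs in both the inhibitor and IL-7. Of the 42 genes, 11 were lower and 0 higher, where 4.54% of all genes tested were lower and 6.5% higher (11% in either direction), and 20 were lower and 0 higher at an unadjusted p under 0.05, with 13 lower and 0 higher by DESeq2. The median was -0.26 on the log2 scale, against -0.01 for all genes tested. The 11 were Mcm2, Mcm3, Mcm5, Mcm6, Mcm7, Cdc6, Orc1, Orc2, Mcm10, Pola2 and Pold2, of which 8 are licensing genes. Mcm7 had 410.0 and 421 CPM with CXCL12 and the inhibitor and 553 and 521 CPM with IL-7 and CXCL12 (-0.37 ± 0.08; edgeR adjusted p = 0.00945). Mcm10 had 83.8 and 86.1 CPM with the inhibitor and 125 and 112 CPM with IL-7 and CXCL12 (-0.48 ± 0.10; edgeR adjusted p = 0.00746), and Pold2 had 57.7 and 60.3 CPM with the inhibitor and 87.2 and 82.0 CPM with IL-7 and CXCL12 (-0.52 ± 0.14; edgeR adjusted p = 0.032). The groups did not overlap in any of the 3 genes. Mcm2 changed by -0.44 ± 0.10, Mcm3 by -0.39 ± 0.08 and Pola2 by -0.25 ± 0.07 (edgeR adjusted p = 0.011, 0.00994 and 0.04996). Leaving out 1 of the 4 libraries left 0 to 4 genes called: 4 without replicate 2 of IL-7 with CXCL12, 1 without replicate 2 with the inhibitor and 0 without either other library, with 13 to 19 below an unadjusted p of 0.05. A fit of these 4 libraries alone called 37 lower. Stromal transcripts summed to 35.9 and 40.1 CPM with the inhibitor and 9.89 and 10.1 CPM with IL-7 and CXCL12. Myeloid transcripts summed to 3314 and 3379 CPM with the inhibitor, against 1899.8 and 1754 CPM with both factors, and their part in the result was not tested.

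Set against cultures with CXCL12 in place of IL-7, the cultures with CXCL12 and the ERK inhibitor were higher in all 42 genes, where 26.9% of all genes tested were higher and 30% lower (56.9% in either direction). These groups come from different sets of libraries, and the set and the inhibitor cannot be told apart. The median was 1.55 on the log2 scale, against -0.02 for all genes tested, and the range was 0.42 for Cdt1 to 2.82 for Pcna. Mcm6 had 535 and 540.2 CPM with CXCL12 and the inhibitor and 133 and 132 CPM with CXCL12 (2.02 ± 0.07; edgeR adjusted p = 1.12e-09). Prim1 had 108 and 102 CPM with the inhibitor and 28.2 and 29.8 CPM with CXCL12 (1.86 ± 0.12; edgeR adjusted p = 8.27e-08), and Tyms had 70.3 and 74.8 CPM with the inhibitor and 16.5 and 16.1 CPM with CXCL12 (2.16 ± 0.14; edgeR adjusted p = 8.60e-08). The inhibitor libraries were at least 3 times the CXCL12 libraries in all 3 genes. Chaf1a changed by 1.66 ± 0.09 (edgeR adjusted p = 2.49e-08) and Cdc45 by 1.59 ± 0.10 (edgeR adjusted p = 9.04e-08). Stromal transcripts summed to 35.9 and 40.1 CPM with the inhibitor and 1799.9 and 1786 CPM with CXCL12, and myeloid transcripts to 3314 and 3379 CPM with the inhibitor and 712 and 718 CPM with CXCL12. Stage markers moved as well. Pro-B and large pre-B transcripts summed to 2021 and 2038 CPM with the inhibitor and 1200.3 and 1179.5 CPM with CXCL12, with 3 of 6 genes higher and 0 lower. Small pre-B transcripts summed to 275 and 269 CPM with the inhibitor and 630.4 and 618 CPM with CXCL12, with 3 of 4 genes lower, and mature B transcripts to 220.1 and 222 CPM with the inhibitor and 792 and 769 CPM with CXCL12, with 5 of 6 genes lower and 1 higher. T cell transcripts summed to 110.1 and 115 CPM with the inhibitor and 35.7 and 34.1 CPM with CXCL12, with 5 of 5 genes tested higher. The part of these in the result was not tested.

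CXCL12 added in the presence of IL-7 showed no fall of the list. Of the 42 genes, 7 were higher and 0 lower with IL-7 and CXCL12 than with IL-7 alone, where 15.3% of all genes tested were higher and 16.5% lower (31.8% in either direction), and the median was 0.05 on the log2 scale, against -0.03 for all genes tested. This comparison too crosses the sets of libraries, and at an unadjusted p under 0.05 there were 8 higher and 2 lower, with 7 higher and 0 lower by DESeq2. The 7 were Mcm6, Mcm7, Mcm10, Pcna, Rfc5, Rrm2 and Tyms. Pcna had 669.7 and 629.6 CPM with IL-7 and CXCL12, against 264 and 267 CPM with IL-7, a change of 1.29 ± 0.14 (edgeR adjusted p = 2.32e-05) and the only one of the 7 above 0.5. Mcm7 had 553 and 521 CPM with IL-7 and CXCL12, against 384 and 383 CPM with IL-7 (0.49 ± 0.08; edgeR adjusted p = 5.18e-04). Pcna was also at 581 and 566 CPM in the other pair of this set, with the inhibitor, so all 4 libraries of the set lay above those of CXCR4-sufficient cells in the other set. Leaving out any 1 library left 2 of the 7 called. Myeloid transcripts summed to 1899.8 and 1754 CPM with both factors, against 158 and 207 CPM with IL-7, with 9 of 10 genes higher. Stromal transcripts summed to 9.89 and 10.1 CPM with both factors, against 321 and 601 CPM with IL-7, with 7 of 7 genes tested lower, and the part of these in the result was not tested.

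CXCR4-/- cultures were also set directly against cultures of CXCR4-sufficient cells. As given above, these sets of libraries differ in stromal, myeloid and B-lineage stage transcripts, in genes counted and in label (small pre-B against pre-B). These differences and the genotype cannot be told apart. With CXCL12, all 42 genes were higher in CXCR4-/- cells, where 27.3% of all genes tested were higher and 35.7% lower (63% in either direction), with a median of 2.07 on the log2 scale, against -0.14 for all genes tested. The range was 0.87 for Cdt1 to 3.05 for Dut. Mcm10 changed by 2.62 ± 0.10, Pole2 by 2.37 ± 0.11, Lig1 by 2.43 ± 0.14 and Chaf1a by 2.25 ± 0.09 (edgeR adjusted p = 2.01e-09, 7.62e-09, 3.09e-08 and 2.42e-09). With no factor, 37 genes were higher and 1 lower in CXCR4-/- cells, where 31% of all genes tested were higher and 34.6% lower (65.6% in either direction), with a median of 0.73, against -0.13 for all genes tested. Without replicate 1 of CXCR4-/- cells the median was 0.46, with 36 genes higher and 1 lower. The 1 lower was Pole, with 115 and 163 CPM in CXCR4-/- cells and 181 and 175 CPM in cells with CXCR4 (-0.36 ± 0.13; edgeR adjusted p = 0.029), while Pole2, its partner, had 72.0 and 58.6 CPM in CXCR4-/- cells and 29.4 and 31.7 CPM in cells with CXCR4 (1.10 ± 0.11; edgeR adjusted p = 5.80e-06). The 2 subunits of polymerase epsilon thus moved in opposite directions, and in CXCR4-/- cells replicate 1 was the lower for Pole and the higher for Pole2. Dut had 962 and 394 CPM in CXCR4-/- cells and 145 and 148 CPM in cells with CXCR4 (2.21 ± 0.29; edgeR adjusted p = 4.52e-05), and without replicate 1 its change was 1.36. Without either library of CXCR4-sufficient cells with no factor, Pole was no longer called, and without replicate 1 of CXCR4-/- cells it was, at -0.20 (edgeR adjusted p = 0.0432). In a fit of these 4 libraries alone, 2 of the 42 genes were called, both higher.

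Other genes of the pathway, listed by function, gave the following counts. Of all genes tested, 13.2% were lower and 17.3% higher with CXCL12 in place of IL-7 than without either factor. In sorted CXCR4-/- against wild-type cells, 16.6% were higher and 17.6% lower. A positive difference of the CXCL12 effect was called in 12.1% and a negative one in 13.1%. Of 30 other fork and origin genes, 24 were lower and 0 higher with CXCL12 in place of IL-7 than without either factor, with a median of -1.11. Among them were Dna2, a nuclease of lagging-strand processing (-1.98), Ticrr, needed to fire origins (-1.79), and Asf1b, a histone chaperone (-1.78). Orc4 (-0.08), Top1 (-0.12) and Asf1a (0.18) were among the 6 that did not pass. In sorted CXCR4-/- cells 18 of the 30 were higher and 3 lower than in wild-type cells, and the 3 were Orc3 (-0.61), Orc4 (-0.72) and Asf1a (-0.78). The difference of the CXCL12 effect between CXCR4-/- and CXCR4-sufficient cells was positive in 21 and negative in 1 of the 30.

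Of 12 S phase entry genes, all 12 were lower with CXCL12 in place of IL-7 than without either factor (median -1.60), all 12 were higher in sorted CXCR4-/- than in wild-type cells (median 1.06), and all 12 had a positive difference of the CXCL12 effect. The shares of all genes tested in these directions were 13.2%, 16.6% and 12.1% in that order. Ccne1 and Ccne2, the cyclins E, changed by -1.70 and -1.72 with CXCL12 and by 1.17 and 1.53 in sorted CXCR4-/- cells, and E2f1, an activator of S phase genes, by -1.13 and 0.76. The 12 mitosis genes gave the same counts in these 3 comparisons, with a median of -1.45 with CXCL12 and of 2.17 in sorted CXCR4-/- cells. Plk1, a mitotic kinase, changed by 2.86 in sorted CXCR4-/- cells and by -1.41 with CXCL12. Loss of IL-7 alone left 0 of the 12 mitosis genes called (2 higher at an unadjusted p under 0.05 and 1 higher by DESeq2), and 1 of the 12 S phase entry genes higher (E2f2) and 1 lower (Cdc25a). Of all genes tested, 5.6% were higher and 6.23% lower in that comparison.

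Other nucleotide supply genes moved in both directions. With CXCL12 in place of IL-7, Ctps (-0.86), Dck (-1.11) and Dtymk (-0.81) were lower than without either factor. Higher were Samhd1, a hydrolase that degrades dNTPs, with 292 and 291 CPM with CXCL12 and 135 and 132 CPM without either factor (1.13 ± 0.08; edgeR adjusted p = 9.80e-07), and Ctps2 (0.34). In sorted CXCR4-/- cells Samhd1 was lower, with 401 and 347 CPM in CXCR4-/- cells and 646 and 625 CPM in wild-type cells (-0.77 ± 0.08; edgeR adjusted p = 1.67e-05), as was Rrm2b, the alternative small subunit of ribonucleotide reductase (-0.98). Samhd1 was singled out after its values were seen. In both comparisons it moved against Rrm1 and Rrm2, and its libraries did not overlap between groups in either.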

How the data were processed

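RNA-seq was read from 18 libraries, made with a stranded poly-A kit from sorted populations per the labels, and the authors deposited whole-number read counts per gene symbol in tables of the whole series. STAR, BWA, Picard, featureCounts, bedtools, MACS2 and the mm9 build are named in the submitters' processing notes. The sources used here give neither versions nor roles, nor whether counting used strand. The peak scores deposited from the ATAC-seq libraries were not used.

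Counts were fitted with edgeR 4.0.16 in R 4.3.3 (TMM scaling, filterByExpr, robust quasi-likelihood) as 1 model of 9 group means over 18 libraries, with 11 contrasts adjusted by Benjamini-Hochberg over 14862 genes. The SE is the absolute log2 change over the square root of F. DESeq2 1.42.0 and other settings were alternatives. Python 3.11.15 made the tables and plots, with pandas 2.3.3, numpy 2.4.6 and matplotlib 3.10.9. Levels are not compared between genes, because no gene lengths were used. Library totals of 17257914 to 50235192 counts set the counting precision.

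The 42 genes and all lists were chosen with earlier results of these data known. Named in full, for each comparison and role, were up to 3 called genes with the smallest p and any called gene that went against the majority. Other genes are given by their change where useful, and some results of the B-lineage and other nucleotide supply lists are not reported here. The replicate numbers were checked as pairs, and the samples were not paired in the main fit.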

Additional observations from a re-analysis of the deposited data

Results flagged for a closer look

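The effect of CXCL12 without IL-7 differed between CXCR4-/- and CXCR4-sufficient cells in 34 of the 42 replication genes. This is the test of the difference itself within the fit of all genes (edgeR adjusted p under 0.05). Of all genes tested, 12.1% had a positive and 13.1% a negative difference. The CXCR4-/- cultures also differed from the others in label (small pre-B against pre-B), in genes counted and in stromal, myeloid and stage transcripts. The part of these in the result was not tested. The genes that lead each role had these differences of log2 change, CXCR4-/- minus CXCR4-sufficient. Among licensing genes the difference was 1.81 for Mcm6, 1.93 for Mcm5 and 1.86 for Mcm3. Among helicase activation genes it was 2.05 for Mcm10, 1.33 for Gins3 and 1.34 for Cdc45. Among polymerase and primase genes it was 2.40 for Pole, 1.52 for Prim1 and 2.39 for Pola1. In the clamp and joining group it was 1.23 for Rfc1, 1.64 for Lig1 and 1.15 for Rfc5. Among nucleotide supply genes it was 1.75 for Rrm1, 1.37 for Rrm2 and 1.51 for Tyms, and in chromatin assembly it was 1.46 for Chaf1a and 1.02 for Chaf1b. For Pole, Pola1, Mcm10 and Rfc1 the difference includes a higher level with CXCL12 in CXCR4-/- cells, where replicate 1 with no factor was the lowest of the 4 libraries.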

How the results depend on the processing

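The counts of replication genes called for sorted cells, for CXCL12 with no IL-7 against either reference, for the difference of the CXCL12 effect, for the ERK inhibitor against CXCL12 and for CXCR4-/- cells with CXCL12 stayed within 1.5 times under each alternative run. Leaving out 1 library gave 35 to 37 in sorted cells, 40 to 40 with CXCL12 against none, 42 to 42 with CXCL12 against IL-7, 30 to 42 for the difference, 40 to 40 for the inhibitor against CXCL12 and 42 to 42 for CXCR4-/- cells with CXCL12. The counts of the other comparisons moved more. Their median changes were small, from -0.26 to 0.05 on the log2 scale, except for CXCR4-/- cells with no factor, at 0.73. Loss of IL-7, with 8 called, gave 5 without the filter on low counts, 38 in a fit of the groups compared, 0 with the closely alike pairs summed, 5 without the 4 libraries high in Gapdh and 0 to 0 with 1 library left out. The inhibitor against IL-7 with CXCL12, with 11 called, gave 5 without the filter, 37 in a fit of the groups compared and 0 to 4 with 1 library left out. CXCL12 in CXCR4-/- cells, with 18 called, gave 0 in a fit of the groups compared, 0 without the 4 libraries high in Gapdh and 0 to 36 with 1 library left out. IL-7 with CXCL12 against IL-7, with 7 called, gave 22 in a fit of the groups compared and 2 to 2 with 1 library left out. CXCR4-/- cells with no factor, with 38 called, gave 2 in a fit of the groups compared and 33 to 38 with 1 library left out. The cause was not tested. The summed pairs and the fit without the libraries high in Gapdh were chosen after seeing the data. Where 1 library was left in a group, it was assumed to vary like the other groups.

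Same-numbered libraries deviated little together in most of 36 pairs of groups, with correlations of -0.16 to 0.21 and 2 pairs over 0.1. The 2 pairs were the cultures without IL-7 with and without CXCL12, at 0.21 in CXCR4-/- cells and 0.11 in CXCR4-sufficient cells. These are the groups of the 2 CXCL12 comparisons and of their difference. The block used next is 1 term shared by all 9 groups, so pairing within those comparisons was not tested. With the replicate number as a block, the counts were 37 for sorted cells, 6 for loss of IL-7, 41 and 42 for CXCL12 against none and against IL-7, 9 and 42 for the inhibitor against IL-7 with CXCL12 and against CXCL12, 18 for CXCL12 in CXCR4-/- cells, 33 for the difference, 6 for IL-7 with CXCL12, and 38 and 42 for CXCR4-/- cells with no factor and with CXCL12. Of 1807 values of named genes under alternatives, 161 lost their call, 99 of them with 1 library left out, and 0 changed direction. The named genes were picked from those called in the main fit, so a change of direction was unlikely from the outset. That count therefore does not speak to stability, nor to genes that were not named. The median of all genes lay over 0.1 from 0 in 4 comparisons, at 0.12 for CXCL12 against IL-7, -0.14 for the difference, -0.13 for CXCR4-/- cells with no factor and -0.14 with CXCL12.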
